A study of Mus musculus with 16 samples.

Results

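The genes described here are the 4 class IIa histone deacetylases (HDACs), Hdac4, Hdac5, Hdac7 and Hdac9, and 3 factors of the myocyte enhancer factor 2 (MEF2) family, Mef2a, Mef2c and Mef2d. They were taken by symbol, as 7 of the 24334 genes in the deposited table, and with earlier results of these data known. All 7 passed the filter on low values, which 15715 genes passed. RNA was sequenced from tumour cells enriched from mice bearing LLC1, a mouse Lewis lung carcinoma line, after 16 days of treatment. The Vehicle group received DMSO, the TMP195 group TMP195 at 50 mg/kg, the MYCi975 group MYCi975 at 50 mg/kg, and the Combo group both compounds, whose doses in combination are not stated. Each group holds 4 libraries, and the labels give neither the strain of the mice nor how tumour cells were enriched.

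Class IIa HDACs have little deacetylase activity of their own. They bind MEF2 factors on DNA through an N-terminal region and bring in a corepressor complex that holds the active enzyme HDAC3, so that MEF2 target genes stay silent. When calcium-activated and related kinases phosphorylate them, 14-3-3 proteins bind and carry them out of the nucleus, and MEF2 is freed to recruit acetyltransferases. TMP195 occupies the pocket of the class IIa catalytic domain that reads acetyl-lysine, and MYCi975 inhibits the transcription factor MYC. MEF2 factors are best known from muscle, neurons, lymphocytes and endothelium, and Hdac9 is itself a MEF2 target in muscle.

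Start sites of 3 members are shown because MEF2 can act on genes of this group and because Hdac9 is the member the results turn on. The sequences come from RefSeq on build GRCm38.p6, which held 13 start sites for the 7 members. Each run gives 60 bases before and 10 bases from the start site on, 5′ to 3′ on the strand of the gene. Capitals mark the 10-base MEF2 consensus and the canonical E-box CACGTG, to which MYC and MAX can bind, both searched on either strand in the 300 bases from 250 before to 50 after the start.
Hdac5, chr11:102230163-102230232, minus strand: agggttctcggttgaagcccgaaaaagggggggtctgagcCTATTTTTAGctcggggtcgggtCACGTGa
Mef2a, chr7:67372849-67372918, minus strand: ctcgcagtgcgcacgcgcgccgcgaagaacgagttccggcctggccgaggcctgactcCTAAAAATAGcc
Hdac9, chr12:34917086-34917155, minus strand: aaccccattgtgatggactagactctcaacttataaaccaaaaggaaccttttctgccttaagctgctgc
Hdac9, chr12:34528880-34528949, minus strand: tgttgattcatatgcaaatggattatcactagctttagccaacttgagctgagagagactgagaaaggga
The MEF2 consensus was found at 2 of the 13 start sites, in Hdac5 from position -20 to -11 and in Mef2a from position -2 to 8. It was found in 0.557% of 32851 mouse windows of the same length. The E-box was found at 1 of the 13, in Hdac5 from position 4 to 9, and in 7.15% of all windows. These are matches of letters and no measure of binding.

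The deposited values are variance-stabilised and lie close to a log2 scale. The lowest value, 4.84, is shared by all libraries and is taken as that of a gene with no reads, and the total count per library is unknown. Values are not divided by transcript length and are not compared between genes. Hdac4, Hdac5, Hdac7, Mef2a and Mef2d lay well above 4.84 in all 16 libraries. Hdac9 (5.82 to 6.60) and Mef2c (5.45 to 7.34) lay near it, so that the stabilisation compresses their differences. Mef2b, the family member outside the group, was at the lowest value in 9 of 16 libraries, reached 5.42 at most and was not tested. In bulk RNA, fewer cells that express a gene and less RNA per cell cannot be told apart.

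The labelled cell type was compared with marker lists. Of 7 epithelial markers, the keratin genes Krt8 (10.17 to 10.97) and Krt18 (10.18 to 11.45) were high, whereas Epcam was at the lowest value in 9 of 16 libraries and Cdh1 in 5. Of 11 fibroblast markers 10 passed the filter, with a list mean of 9.61 to 10.89 per library. Col3a1 ran from 15.92 to 17.15, whereas Col1a2 ran from 6.39 to 7.51 and Postn from 6.04 to 8.68. Thy1 was at the lowest value in 7 libraries. Endothelial and B-cell markers bear on Mef2c and Hdac7, which those cells are known to express. Of 11 endothelial markers 4 passed, Pecam1 among them (7.86 to 9.09), while Tek and Erg were each at the lowest value in 8 libraries. Among B-cell markers Pax5 passed (7.47 to 8.61), whereas Cd79a and Ms4a1 did not and reached at most 5.36 and 5.45. Leukocyte markers were present, with 8 of 10 passing the filter. List means were 6.33 to 6.84 in Vehicle, 6.71 to 7.77 in TMP195, 6.32 to 7.02 in MYCi975 and 6.40 to 6.67 in Combo. In this list Itgb2 ran from 8.65 to 10.4 and Arhgdib from 8.56 to 10.57, whereas Cd53 ran from 5.37 to 7.6. Cd48 was at the lowest value in 5 libraries and Cd52 in 2.

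Across all genes, limma called none at an adjusted p under 0.05 in any of the 8 comparisons made (0% called), so no member was called either. At an unadjusted p under 0.05 the share of all tested genes in the comparisons with Vehicle was 4.88% for TMP195, 3.03% for MYCi975 and 4.09% for Combo. Combo gave 2.32% when set against MYCi975 and 5.33% when set against TMP195. It was 3% for the interaction, which is the difference between the TMP195 effect with and without MYCi975. For the 8 libraries with TMP195 (the TMP195 and Combo groups) against the 8 without it the share was 4.37%, and for the 8 with MYCi975 against the 8 without it 5.32%. The 3 comparisons with Vehicle share the same 4 control libraries. Hdac9 was the only one of the 7 members with an unadjusted p under 0.05 in any of the 8 comparisons, in TMP195 against Vehicle, in Combo against MYCi975 and in the 8 against 8 comparison of TMP195.

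**Figure D1:**
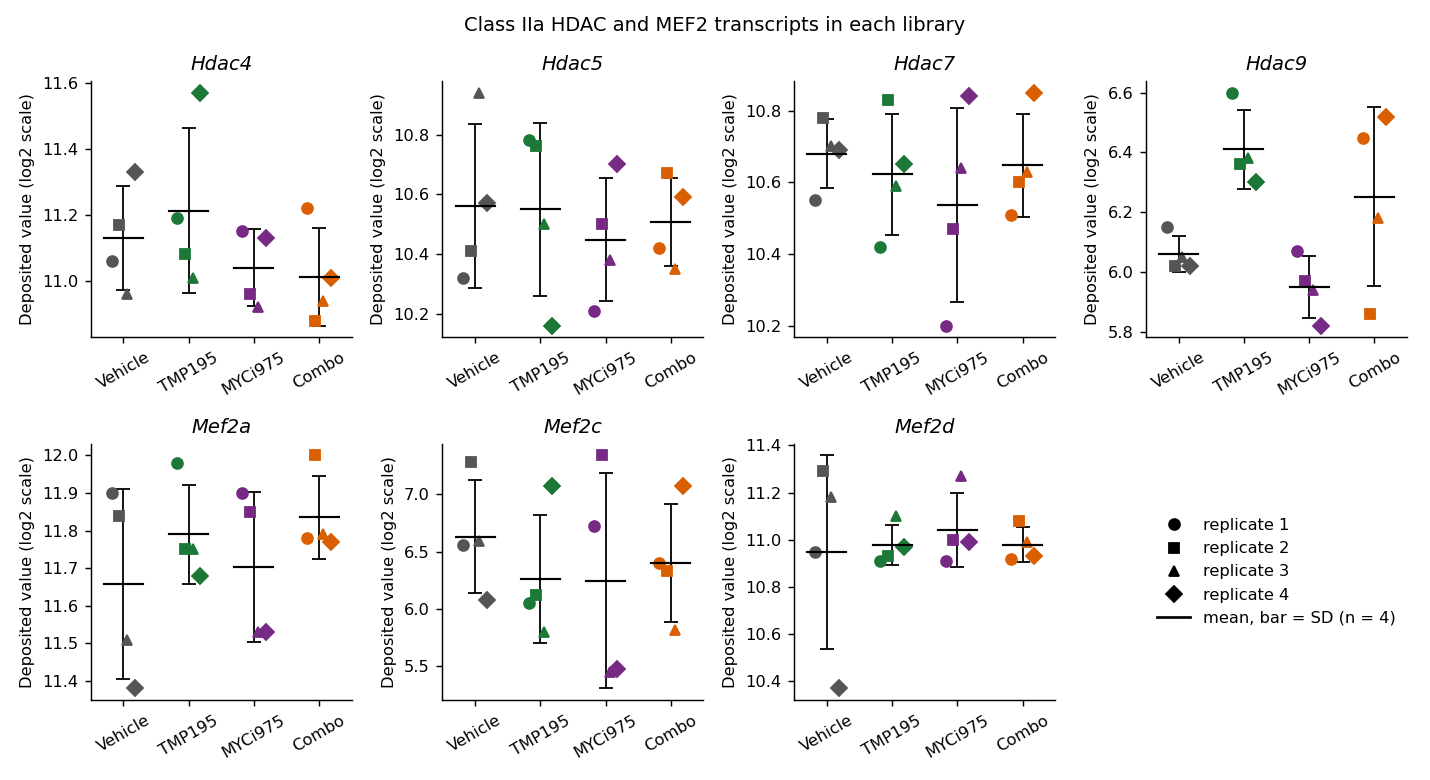
Deposited values (vertical axes, log2 scale, not starting at 0) of the 7 genes in the 16 libraries, by group, with the shape of a point giving the replicate number, lines the group mean and bars the SD (n = 4). Hdac9 alone has all 4 TMP195 libraries (6.30 to 6.60) above all 4 Vehicle libraries (6.02 to 6.15), and Mef2c has the widest scatter, from 5.45 to 7.34.

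Hdac9 (ENSMUSG00000004698.12) encodes the class IIa HDAC whose short splice form lacks the catalytic domain and still binds MEF2; the table does not separate splice forms. Its values in Vehicle replicates 1 to 4 were 6.15, 6.02, 6.05 and 6.02. In TMP195 they were 6.60, 6.36, 6.38 and 6.30. All 4 TMP195 libraries thus lay above all 4 of Vehicle, an arrangement that 1.1% of the tested genes showed. In MYCi975 the values were 6.07, 5.97, 5.94 and 5.82, and in Combo 6.45, 5.86, 6.18 and 6.52. Combo replicates 1, 3 and 4 lay above every Vehicle and MYCi975 library, and Combo replicate 2 below all of Vehicle.

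The mean of Hdac9 was 6.41 ± 0.13 (SD, n = 4) in TMP195, 6.25 ± 0.30 in Combo, 6.06 ± 0.06 in Vehicle and 5.95 ± 0.10 in MYCi975. Ranges of neighbours in this order overlapped, and the gap between Vehicle and MYCi975 (0.11) was the only one above the pooled SD of its groups (0.09). Markers of some other cells also stood higher in TMP195. The list mean of 7 neutrophil markers, of which 5 passed the filter, was 6.17 to 6.84 in TMP195 and 5.80 to 6.08 in Vehicle. That of 11 macrophage markers, of which 5 passed, was 5.94 to 6.89, against 5.67 to 6.23 in Vehicle. In MYCi975 the neutrophil list was at 6.33 ± 0.78 (SD, n = 4), with 5.94, 5.68, 7.44 and 6.27 in replicates 1 to 4. In Combo it was at 5.88 ± 0.27. The macrophage list was at 5.84 ± 0.10 in MYCi975 and 5.93 ± 0.20 in Combo, beside 5.89 ± 0.24 in Vehicle. The part of these cells in the Hdac9 values was not tested beyond the leukocyte covariate below. The difference of TMP195 from Vehicle in Hdac9 was 0.35 (SE 0.14, 95% interval 0.05 to 0.65, limma adjusted p = 0.945). It was 0.33 with the mean of the leukocyte markers as a covariate and 0.28 without TMP195 replicates 1 and 2, the 2 libraries highest in those markers, and the unadjusted p was then above 0.05 in both cases. With MYCi975 in both groups, Combo differed from MYCi975 by 0.30 (SE 0.14, interval 0.01 to 0.60, limma adjusted p = 1). This value was 0.43 without Combo replicate 2 and 0.17 without the libraries numbered 4.

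In the 8 libraries with TMP195, Hdac9 averaged 6.33 ± 0.23 (SD), against 6.0 ± 0.10 in the 8 without it. Of the 8 with TMP195, 7 lay above the highest of the 8 without it, which was 6.15. The share of all tested genes with such an arrangement was not counted. The difference of Hdac9 was 0.33 (SE 0.10, interval 0.12 to 0.54), with a limma adjusted p of 0.999, and was 0.39 without Combo replicate 2. The interaction was -0.05 (SE 0.20, interval -0.47 to 0.37), an interval that spans differences as large as the effect itself. MYCi975 differed from Vehicle by -0.11 (interval -0.41 to 0.19), Combo from Vehicle by 0.19 (interval -0.10 to 0.49; 0.32 without Combo replicate 2), and Combo from TMP195 by -0.16 (interval -0.45 to 0.14). The 8 libraries with MYCi975 differed from the 8 without it by -0.13 (SE 0.10, adjusted p = 0.985).

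Hdac4 (ENSMUSG00000026313.17) encodes the class IIa HDAC best known for holding back chondrocyte maturation and for its control by calcium signals in muscle. Its values were 11.06, 11.17, 10.96 and 11.33 in Vehicle and 11.19, 11.08, 11.01 and 11.57 in TMP195. MYCi975 gave 11.15, 10.96, 10.92 and 11.13, and Combo 11.22, 10.88, 10.94 and 11.01. TMP195 replicate 4 was the highest of the 16 libraries, and all 4 groups overlapped. Group means were 11.21 ± 0.25 (SD, n = 4) in TMP195, 11.13 ± 0.16 in Vehicle, 11.04 ± 0.12 in MYCi975 and 11.01 ± 0.15 in Combo, and no neighbours in this order differed beyond their spread. Against Vehicle Hdac4 differed by 0.08 under TMP195, by -0.09 under MYCi975 and by -0.12 in Combo (SE 0.13). Combo differed from TMP195 by -0.20 (SE 0.13, interval -0.46 to 0.06). Without TMP195 replicate 4 that value was -0.08, and the difference of TMP195 from Vehicle was -0.04. The 8 libraries with MYCi975 differed from the 8 without it by -0.15 (SE 0.09, limma adjusted p = 0.985).

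Hdac5 (ENSMUSG00000008855.18) encodes a close relative of Hdac4 that restrains the growth response of heart muscle. Its values were 10.32, 10.41, 10.94 and 10.57 in Vehicle and 10.78, 10.76, 10.50 and 10.16 in TMP195. In MYCi975 they were 10.21, 10.50, 10.38 and 10.70, and in Combo 10.42, 10.67, 10.35 and 10.59. The highest library was Vehicle replicate 3 and the lowest TMP195 replicate 4, and the groups overlapped throughout. Group means lay between 10.45 ± 0.21 (SD, n = 4) in MYCi975 and 10.56 ± 0.27 in Vehicle. The differences from Vehicle were -0.01 in TMP195, -0.11 in MYCi975 and -0.05 in Combo (SE 0.16), with 95% intervals that together reach from -0.44 to 0.32. In TMP195 the value was -0.22 with the leukocyte covariate and -0.23 without TMP195 replicates 1 and 2, but 0.12 without TMP195 replicate 4.

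Hdac7 (ENSMUSG00000022475.20) encodes the class IIa HDAC required for blood vessel integrity and for thymocyte selection. It gave 10.55, 10.78, 10.70 and 10.69 in Vehicle and 10.42, 10.83, 10.59 and 10.65 in TMP195. It gave 10.20, 10.47, 10.64 and 10.84 in MYCi975 and 10.51, 10.60, 10.63 and 10.85 in Combo. The lowest library was MYCi975 replicate 1, and the group ranges overlapped. Vehicle had the smallest scatter (10.68 ± 0.09, SD, n = 4) and MYCi975 the largest (10.54 ± 0.27). The differences from Vehicle were -0.06 in TMP195, -0.14 in MYCi975 and -0.03 in Combo (SE 0.13), with 95% intervals from -0.41 to 0.24 in all. In MYCi975 all 4 class IIa HDAC genes lay below Vehicle, with a median of -0.11 and none called, beside a median of -0.01 over all tested genes, of which 47.07% lay above Vehicle. All 4 also lay below with quantile normalisation and with median centring, but Hdac5 was at 0.013 without Vehicle replicate 3, and Hdac7 was at -0.029 without MYCi975 replicate 1.

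**Figure D2:**
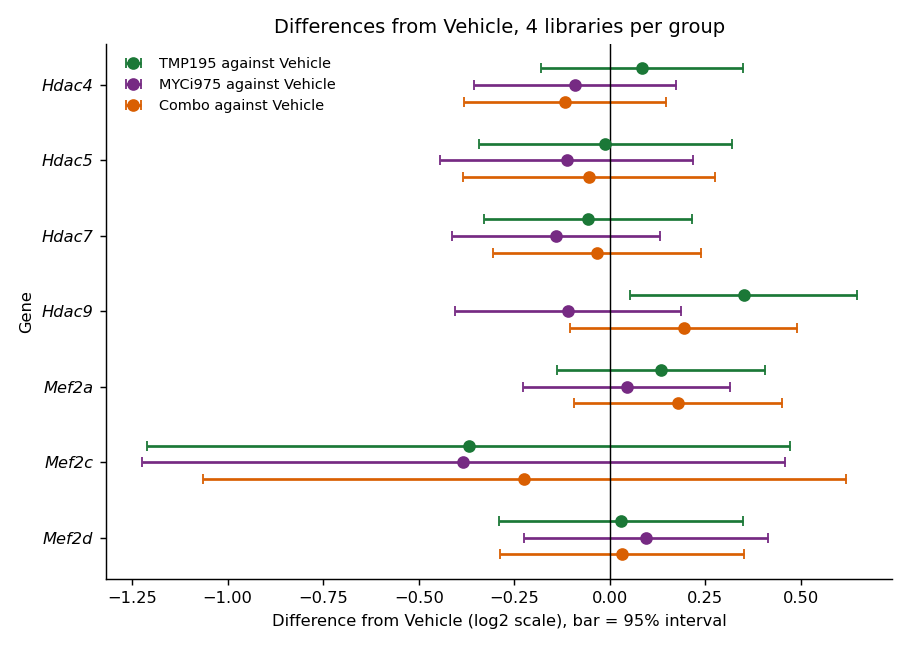
Differences from Vehicle (horizontal axis, log2 scale) of the 7 genes in TMP195, MYCi975 and Combo, 4 libraries per group, with points for limma estimates and bars for 95% intervals. The interval of Hdac9 in TMP195 (0.05 to 0.65) is the one interval of 21 that does not span 0, and those of Mef2c are the widest.

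Mef2a (ENSMUSG00000030557.18) encodes a broadly expressed MEF2 factor of heart and skeletal muscle. Its values were 11.90, 11.84, 11.51 and 11.38 in Vehicle and 11.98, 11.75, 11.75 and 11.68 in TMP195. In MYCi975 they were 11.90, 11.85, 11.53 and 11.53, and in Combo 11.78, 12.00, 11.79 and 11.77. In Vehicle and in MYCi975, replicates 1 and 2 lay at 11.84 or above and replicates 3 and 4 at 11.53 or below, whereas TMP195 and Combo lay at 11.68 or above throughout. Means were 11.84 ± 0.11 (SD, n = 4) in Combo, 11.79 ± 0.13 in TMP195, 11.70 ± 0.20 in MYCi975 and 11.66 ± 0.25 in Vehicle, with overlapping ranges. The differences from Vehicle were 0.18 in Combo (interval -0.09 to 0.45), 0.13 in TMP195 (interval -0.14 to 0.41) and 0.04 in MYCi975 (interval -0.23 to 0.32). Without Vehicle replicate 4, the lowest library, they were 0.086 in Combo, 0.041 in TMP195 and -0.048 in MYCi975. The TMP195 value was also 0.21 without Vehicle replicate 1, 0.085 without Vehicle replicate 3 and 0.071 without TMP195 replicate 1. The 8 libraries with TMP195 differed from the 8 without it by 0.13 (SE 0.09, limma adjusted p = 0.999).

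Mef2d (ENSMUSG00000001419.18) encodes the MEF2 factor that acts in muscle differentiation and neuronal survival. Its values were 10.95, 11.29, 11.18 and 10.37 in Vehicle and 10.91, 10.93, 11.10 and 10.97 in TMP195. It gave 10.91, 11, 11.27 and 10.99 in MYCi975 and 10.92, 11.08, 10.99 and 10.93 in Combo. Vehicle replicate 4 stood lowest, and Vehicle had the widest scatter (10.95 ± 0.41, SD, n = 4) beside 0.08 to 0.15 in the treated groups. The differences from Vehicle were 0.03 in TMP195, 0.09 in MYCi975 and 0.03 in Combo (SE 0.15). Without Vehicle replicate 4 all 3 turned negative, at -0.16, -0.10 and -0.16. The 8 libraries with MYCi975 differed from the 8 without it by 0.05.

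Mef2c (ENSMUSG00000005583.17) encodes the MEF2 factor needed for heart looping and for B-cell and vascular development. It gave 6.56, 7.28, 6.59 and 6.08 in Vehicle and 6.05, 6.12, 5.80 and 7.07 in TMP195. It gave 6.72, 7.34, 5.45 and 5.47 in MYCi975 and 6.40, 6.33, 5.81 and 7.07 in Combo. High and low libraries occurred in every group, and in MYCi975 replicates 1 and 2 were high and replicates 3 and 4 the lowest of the 16. Group means ran from 6.24 ± 0.94 (SD, n = 4) in MYCi975 to 6.63 ± 0.49 in Vehicle. The differences from Vehicle were -0.37 in TMP195, -0.38 in MYCi975 and -0.22 in Combo (SE 0.40), and their intervals reach from -1.23 to 0.62. With the leukocyte list as a covariate the TMP195 value was 0.14, on the other side of 0. It was -0.15 without Vehicle replicate 2, -0.64 without TMP195 replicate 4 and -0.82 without the libraries numbered 4 (limma adjusted p = 0.972). The MYCi975 value was -0.12 without MYCi975 replicate 3, -0.13 without replicate 4, -0.75 without replicate 2 and -0.17 without Vehicle replicate 2. The Combo value was -0.0066 without Vehicle replicate 2, -0.025 without Combo replicate 3, -0.45 without Combo replicate 4 and -0.63 without the libraries numbered 4. Leaving out a single library thus moved all 3 values by over 1.5 times. The interaction was 0.53 (SE 0.56, interval -0.66 to 1.72), and the 8 against 8 comparison of TMP195 gave -0.10 (SE 0.28).

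The spread between libraries of a group set Mef2c and Hdac9 apart from each other although their values lay in the same range. The residual SD of Mef2c was 0.65, higher than that of 97.65% of the 3070 tested genes whose mean lay within 0.5 of its own. That of Hdac9 was 0.17, higher than that of 13.88% of 3552 such genes. For the other 5 members it ran from 0.18 to 0.24, beside a median of 0.22 over all tested genes. Mef2c passed the filter level in 12 of 16 libraries and Hdac9 in 15, whereas the other 5 members passed it in all 16.

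**Figure D3:**
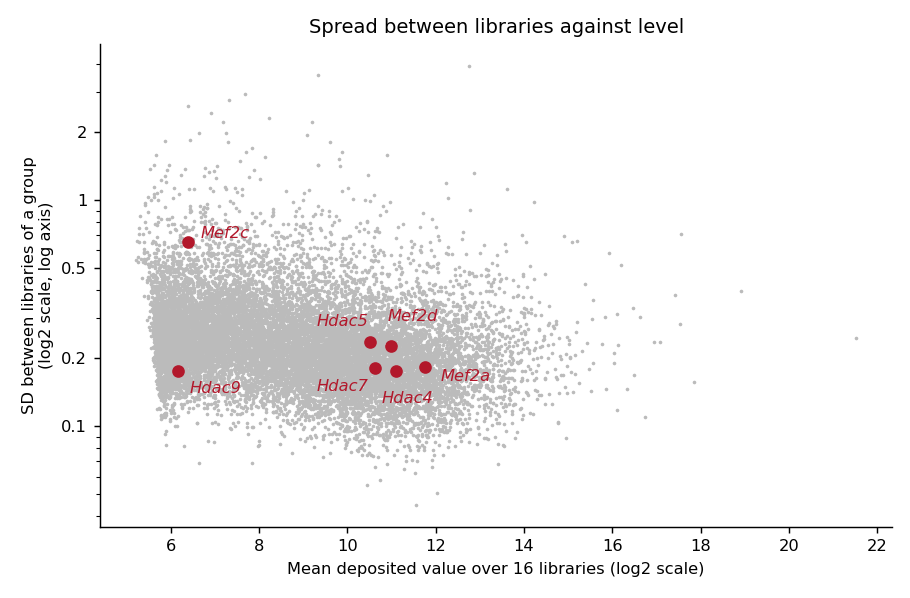
SD between libraries of a group (vertical axis, log scale, in log2 units) against the mean value over 16 libraries (horizontal axis, log2 scale), with grey points for the 15715 tested genes and red points for the 7 members. Mef2c (0.65) lies near the top of the cloud at its level, Hdac9 (0.17) in the lower part, and the other 5 members between 0.18 and 0.24.

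Whether members varied together was examined in pairs. Of 21 pairs across the 16 libraries, none passed a permutation test after adjustment over the pairs, by Pearson's r (lowest adjusted p = 0.798) or by Spearman's rho (lowest adjusted p = 0.172). The pairs with the smallest unadjusted p both ran in opposite directions. For Hdac7 and Mef2a, r was -0.48 (permutation p = 0.0586) and rho -0.65 (permutation p = 0.00835), with r = -0.51 without MYCi975 replicate 1 and Combo replicate 4, the farthest from the median of Hdac7. For Hdac4 and Mef2d, r was -0.46 (permutation p = 0.0821) and rho -0.60 (permutation p = 0.0164), with r = -0.37 without TMP195 replicate 4 and Vehicle replicate 4. Without the 4 libraries numbered 4, r was -0.44 for the first pair and -0.39 for the second.

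The 7 members were also set against 4 marker lists, as 28 relations over the 16 libraries. Hdac9 ran against the 10 skeletal muscle markers in the table, with r = -0.65 (permutation p = 0.00525, adjusted p = 0.147) and rho = -0.78 (permutation p = 0.00069, adjusted p = 0.0193). The value of r was -0.59 without MYCi975 replicates 3 and 4, the farthest on the marker axis, -0.63 without the libraries numbered 4, and -0.46 within groups. No p was computed within groups. Libraries were permuted without regard to group, so the p-values of this relation include differences between group means. Muscle list means lay at 5.33 to 5.87, near the lowest value of the table, 4 of 12 markers passed the filter, and Ckm was at the lowest value in 11 of 16 libraries. The mean of this list was 5.67 ± 0.16 (SD, n = 4) in MYCi975 and 5.42 to 5.46 in the other groups. With the leukocyte markers Hdac9 gave r = 0.36 (permutation p = 0.171, adjusted p = 0.477) and rho = 0.10 (permutation p = 0.708, adjusted p = 0.767), and without TMP195 replicates 1 and 2 r was -0.25, so that the positive value rests on those libraries. With the macrophage markers Hdac9 gave r = 0.45 (permutation p = 0.0761, adjusted p = 0.439) and rho = 0.24 (permutation p = 0.362, adjusted p = 0.612). That r was 0.038 without TMP195 replicates 1 and 2, and -0.083 within groups. The part of any of these cell types in the Hdac9 values was not tested beyond the leukocyte covariate.

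**Figure D4:**
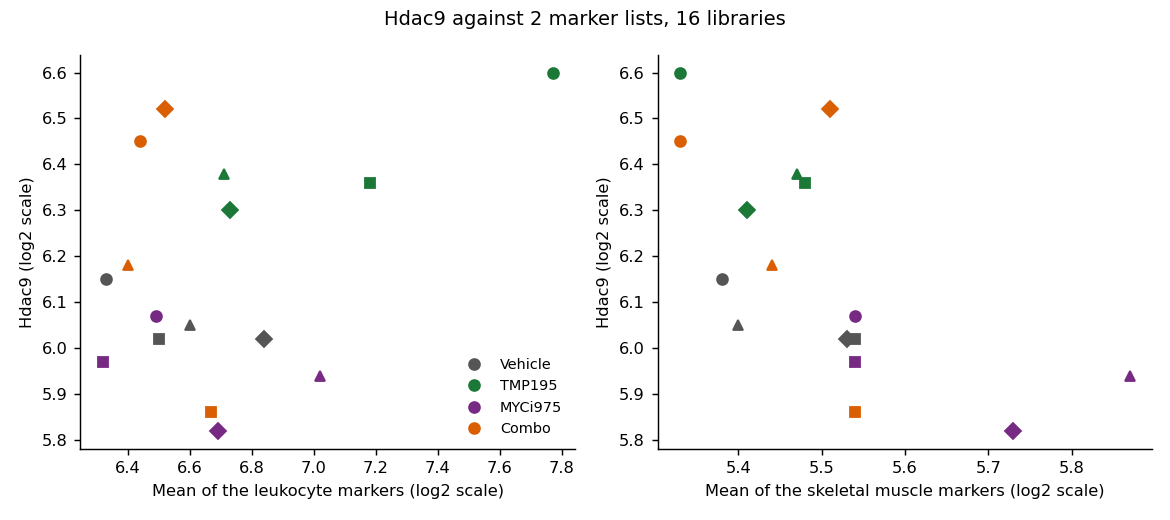
Hdac9 (vertical axes, log2 scale) against the mean of the leukocyte markers (left) and of the skeletal muscle markers (right) in the 16 libraries, coloured by group, with the shape giving the replicate number (circle 1, square 2, triangle 3, diamond 4). On the left TMP195 replicate 1 holds the highest value on both axes, and on the right Hdac9 tends to be lower where the muscle markers are higher (rho = -0.78).

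No other relation passed after adjustment by either coefficient. With the leukocyte list Hdac5 gave r = 0.45 (permutation p = 0.0817, adjusted p = 0.439) and rho = 0.44 (permutation p = 0.094, adjusted p = 0.453), with 0.53 within groups, and r was 0.15 without TMP195 replicates 1 and 2. The endothelial list gave r = 0.55 with Hdac4 (permutation p = 0.0279, adjusted p = 0.391) and rho = 0.34 (permutation p = 0.199, adjusted p = 0.505). That r was 0.37 without TMP195 replicate 4 and MYCi975 replicate 1, and 0.13 without the libraries numbered 4. Hdac7, a gene of endothelium, gave r = 0.50 (permutation p = 0.0501, adjusted p = 0.439) and rho = 0.54 (permutation p = 0.0333, adjusted p = 0.366) with that list. Its r was 0.41 without TMP195 replicate 4 and MYCi975 replicate 1, and 0.38 without the libraries numbered 4. Mef2c ran against the leukocyte list, with r = -0.43 (permutation p = 0.0941, adjusted p = 0.439) and rho = -0.52 (permutation p = 0.0393, adjusted p = 0.366), and r was -0.55 without TMP195 replicates 1 and 2.

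For each member the 3 named genes whose values followed it most closely over the 16 libraries were taken from 12244 candidates, by Pearson's r and as a description. Hdac4 was followed by Tgs1 (0.91), Zfp106 (0.87) and Esf1 (0.84). Hdac5 was followed by Mst1 (0.78), Pcdh7 (0.76) and Myo1c (0.75), and Hdac7 by Gpaa1, Wipi2 and Cenpo (each 0.84). Hdac9 was followed by Wdr53 (0.80), Mtf2 (0.74) and Tmed7 (0.73). Among the MEF2 factors, Mef2a was followed by Cpne3 (0.88), Cnot6 (0.85) and Tnks (0.84). Mef2c was followed by Gpt2 (0.83), Usp45 (0.82) and Gatm (0.81), and Mef2d by Med20 (0.87), Lhfp (0.84) and Sin3a (0.84), which encodes a scaffold of class I HDAC complexes. The points share library depth and composition.

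Genes that act on or with class IIa HDACs and MEF2 were taken as lists from general knowledge, with earlier results of these data known. None of their genes was called in any comparison, and the counts below are of direction. Of 18 kinases that can phosphorylate class IIa HDACs, 15 were tested, of which 9 lay above Vehicle in TMP195, with a median of 0.002, against 10 with quantile normalisation and 11 with median centring. Camk1d, a calcium-activated kinase, differed by 0.21 between the 8 libraries with TMP195 and the 8 without (SE 0.10, limma adjusted p = 0.999). Mark3, a kinase of the MARK family, differed by 0.41 (SE 0.19, limma adjusted p = 0.987) in Combo against Vehicle. Its values were 11.74, 11.19, 11.49 and 11.54 in Combo and 11.19, 11.03, 11.52 and 10.56 in Vehicle, which overlap, and the difference was 0.24 without Vehicle replicate 4.

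Of 7 genes of 14-3-3 proteins, 6 lay below Vehicle in TMP195, with a median of -0.08, and 5 with quantile normalisation or median centring. Ywhab, one of them, differed by -0.15 in the 8 libraries with TMP195 (SE 0.07, limma adjusted p = 0.999). Of 7 phosphatase genes 3 lay above Vehicle in TMP195 (median -0.01), against 4 with quantile normalisation and 5 with median centring, and Ppp3ca, a catalytic subunit of calcineurin, differed by 0.20 (SE 0.11). Of 10 corepressor partners 7 lay below Vehicle (median -0.06), or 6 under either of these scalings, and Tbl1x, a subunit of the complex that holds HDAC3, differed by -0.16 (SE 0.11). Of the 7 other zinc-dependent HDACs 5 lay below (median -0.09), or 4 with median centring, and Hdac6, a deacetylase of tubulin, differed by -0.14 (SE 0.26). Over all tested genes the median was -0.01 and 46.26% lay above Vehicle. In the 8 against 8 comparison of TMP195 the directions partly differed. There 12 of 15 kinases (median 0.07) lay higher, as did 6 of 7 phosphatases (median 0.04), or 7 under either scaling. Of 10 corepressor partners 7 lay higher (median 0.02), or 8 with median centring. Of the 14-3-3 genes 5 of 7 lay lower (median -0.06), or 4 under either scaling. Of the other HDACs 5 of 7 lay lower (median -0.05), or 4 with median centring. Over all tested genes 48.57% lay higher in that comparison.

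Among activators of MEF2, 6 of the 10 tested genes lay below Vehicle in TMP195 (median -0.05), and 5 of 10 under either scaling. Carm1, an arginine methyltransferase and MEF2 coactivator, gave 11.10, 11.21, 11.22 and 11.22 in TMP195 and 11.38, 11.58, 11.41 and 11.26 in Vehicle. Its groups did not overlap, and the difference was -0.22 (SE 0.09, limma adjusted p = 0.945), or -0.13 with the leukocyte covariate. All 4 TMP195 libraries lay below all 4 of Vehicle in 1.4% of the tested genes. In the 8 libraries with TMP195 Carm1 differed by -0.15 (SE 0.06, adjusted p = 0.999).

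Of 9 other transcription factors known to bind class IIa HDACs, 7 were tested. Srf, which encodes the serum response factor of muscle and cytoskeletal genes, gave 9.39, 9.32, 9.43 and 9.46 in TMP195 and 9.66, 9.68, 9.66 and 9.80 in Vehicle. These groups did not overlap either. In Combo Srf gave 9.57, 9.40, 9.27 and 9.60, below every Vehicle library, an arrangement that 1.53% of the tested genes showed, and in MYCi975 9.46, 9.54, 9.98 and 9.96, on both sides of Vehicle. The difference of TMP195 from Vehicle was -0.30 (SE 0.12, limma adjusted p = 0.945). In the 8 libraries with TMP195 against the 8 without it, the difference was -0.29 (SE 0.09, limma adjusted p = 0.999). Foxo3, a forkhead factor, gave 12.91, 13.04, 12.85 and 12.64 in TMP195 and 12.59, 12.59, 12.68 and 12.71 in Vehicle, with a difference of 0.22 (SE 0.09, limma adjusted p = 0.945) that was 0.10 without TMP195 replicates 1 and 2.

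Of 20 known MEF2 target genes, 18 were in the table and 9 passed the filter. Those left untested are mostly genes of striated muscle, such as Des, Ckm, Myog and Xirp1, or of neurons, such as Arc. Of the 9, 7 lay below Vehicle in TMP195 (median -0.20), 8 in MYCi975 (median -0.22) and 6 in Combo (median -0.16), counts that rest on the same 4 Vehicle libraries. Between treated groups the list lay the other way, with 6 of 9 higher in Combo than in MYCi975 (median 0.16) and 6 of 9 higher in Combo than in TMP195 (median 0.05). The interaction was above 0 for 7 of the 9 (median 0.31), or 8 with quantile normalisation. In the 8 against 8 comparison of TMP195, 5 lay below (median -0.06). In that of MYCi975, 7 lay below (median -0.12), or 8 with median centring. Apart from this comparison and the interaction, these counts were the same under both scalings. Beside them, the share of all tested genes that lay higher was 46.26% in TMP195, 47.07% in MYCi975 and 47.4% in Combo against Vehicle. It was 50.16% in Combo against MYCi975, 50.7% in Combo against TMP195 and 51.82% for the interaction. In the 8 against 8 comparisons it was 48.57% for TMP195 and 49.46% for MYCi975. Klf2, a factor of endothelium and lymphocytes, gave 10.46, 10.15, 10.20 and 10.51 in TMP195 and 10.47, 10.30, 11.10 and 11.18 in Vehicle. The groups overlapped, with a difference of -0.43 (SE 0.20, limma adjusted p = 0.945). Klf4, a related factor, differed by -0.43 (SE 0.19, limma adjusted p = 0.987) in Combo, where replicate 3 gave 8.72 and the others 9.27 to 9.65, beside 9.49 to 9.92 in Vehicle, and without that replicate the difference was -0.23. Of the 9, Hdac9 alone had an unadjusted p under 0.05 in the positive direction in TMP195.

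**Figure D5:**
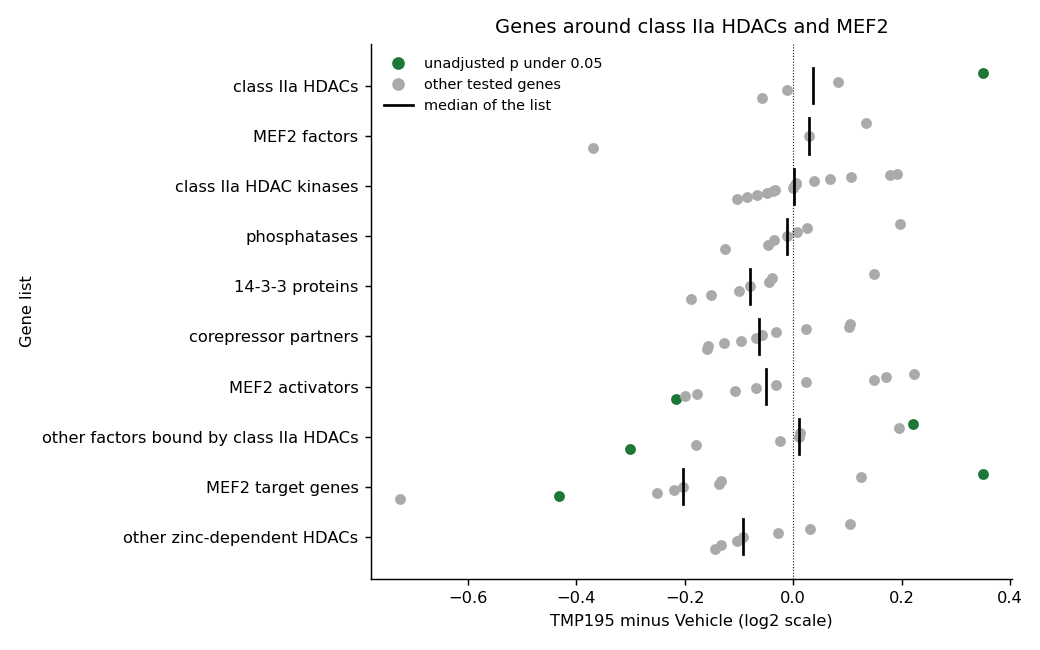
Differences of TMP195 from Vehicle (horizontal axis, log2 scale) for the tested genes of the 10 lists, 1 row per list, with black bars for list medians and green points for an unadjusted p under 0.05. The green points are Hdac9 (shown in 2 lists), Carm1, Srf, Foxo3 and Klf2.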

How the data were processed

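Per the labels' protocols, RNA was column-purified and sequenced from stranded total RNA libraries. The authors deposited 1 table of variance-stabilised values, close to log2 in scale, for 24334 genes and 16 libraries. Salmon and the build hg38 are named, per the submitters' processing notes, although the organism is mouse. Neither the stabilising tool nor an annotation is named in the labels. Total counts, and any interval or detection limit that needs them, are unknown.

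Symbols were matched on unversioned identifiers (95.13% matched). Genes that exceeded the lowest value by at least 1 unit in 4 or more libraries were tested (15715), with limma 3.58.1 in R 4.3.3: 1 mean per group, moderation with an intensity trend, contrasts of group means, two-sided p, Benjamini-Hochberg adjustment over all tested genes within each comparison, and a call at an adjusted p under 0.05. The fit was tested on simulated data. Correlations used 100000 permutations of the 16 libraries without regard to group, two-sided. Whether libraries come from different animals is not stated, so p-values measure the spread between libraries, which may be technical.

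Members and gene lists were chosen with earlier results of these data known, so the Hdac9 value is no independent support. Genes named from lists had an unadjusted p under 0.05 in a comparison with Vehicle or in the 8 against 8 comparison of TMP195, or else the largest difference of their list in TMP195; the 3 closest genes per member leave out predicted genes. Alternatives were 2 other filters, 2 other moderations, quantile normalisation, median centring, quality weights, a replicate block, a leukocyte covariate, only the groups compared, leaving out each library, all libraries numbered 4, and the 2 highest in leukocyte markers.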

Additional observations from a re-analysis of the deposited data

Results flagged for a closer look

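Mef2a in Combo replicate 2 was 12.00, while the other 3 Combo libraries lay between 11.77 and 11.79. The gap to the nearest library was 0.904 of the range of the group, above the 95% critical value of Dixon's test for 4 samples. This was 1 of 28 groups of 4 libraries examined for the 7 members, and chance flags about 1 in 20.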

How the results depend on the processing

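None of the 46 differences followed here for single genes was called under any alternative, and of these 29 kept their sign under every alternative, among them all 7 of Hdac9 other than its interaction; Hdac9 and Mef2c were not tested under the stricter filter. Hdac9 in TMP195 against Vehicle ranged from 0.28 to 0.39, and in the 8 against 8 comparison from 0.27 to 0.39. The causes of the following changes of sign were not tested. For TMP195 against Vehicle, Hdac5 was 0.025 with quantile normalisation, 0.030 with median centring, 0.092 with quality weights and 0.12 without the libraries numbered 4, and moved farthest, to -0.23, without the 2 libraries highest in leukocyte markers; with quality weights Hdac7 was 0.022 and Mef2d -0.031; Mef2d was -0.16 without the libraries numbered 4; and Mef2c was 0.14 with the leukocyte covariate. For MYCi975 against Vehicle, Mef2d was -0.080 without the libraries numbered 4. For Combo against Vehicle, Hdac7 was 0.0072 with quantile normalisation and 0.00344 with quality weights, and Mef2d -0.033 with quality weights and -0.14 without the libraries numbered 4. The Hdac9 interaction was 0.010 with quantile normalisation and 0.022 without the 2 libraries highest in leukocyte markers; with the leukocyte covariate Mef2c was -0.090 for the interaction and 0.091 for the 8 against 8 comparison of TMP195; and Mef2d in that of MYCi975 was -0.032 without the libraries numbered 4.

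When each library was left out, values for TMP195 against Vehicle ran from -0.037 to 0.15 for Hdac4, from -0.092 to 0.12 for Hdac5, from -0.13 to 0.011 for Hdac7, from -0.16 to 0.14 for Mef2d and from -0.29 to 0.11 for Hdac6. For MYCi975 against Vehicle they ran from -0.20 to 0.013 for Hdac5, from -0.048 to 0.13 for Mef2a and from -0.098 to 0.21 for Mef2d. For Combo against Vehicle they ran from -0.13 to 0.071 for Hdac5, from -0.10 to 0.012 for Hdac7 and from -0.16 to 0.15 for Mef2d. The interaction ran from -0.14 to 0.083 for Hdac9 and from -0.18 to 0.011 for Hdac4. In the 8 against 8 comparisons Mef2c ran from -0.24 to 0.077 for TMP195 and Mef2d from -0.047 to 0.11 for MYCi975.

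Counts of called genes, 0 in every comparison, were 1 for Combo against Vehicle with only the groups compared (the predicted gene Gm15452), and 1 without the intensity trend (Cd93) and 65 with quality weights for Combo against TMP195. Leaving out single libraries gave from 0 to 2 calls for TMP195 against Vehicle and for Combo against TMP195, and from 0 to 1 for MYCi975 against Vehicle and for Combo against MYCi975. These were Csf1r and Ccr2 without TMP195 replicate 3, Cd93 without Combo replicate 4, and the predicted gene Gm15801 without MYCi975 replicate 2, named after their values were seen. The replicate number as a block left Hdac9 in TMP195 at 0.35 (limma adjusted p = 0.778) and ended or made no call. Deviations of same-numbered libraries from their group means correlated at 0.20 to 0.43 for number 1 and 0.17 to 0.39 for number 4, but at -0.11 to 0.24 for number 2 and -0.24 to 0.12 for number 3, beside -0.32 to 0.30 for libraries of different groups and numbers, so the numbers were not taken to pair the libraries.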
